A study of Mus musculus with 6 samples.

Results

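Sarcomere and Z-disc genes encode the contractile lattice of heart muscle. The set comprised 35 genes, and their probes were found by matching the RefSeq accession of each array probe to the gene's symbol. Of these 35 genes, 34 had a named probe (48 probes in all) out of 20659 genes named on the array. All 48 probes passed the filter on dim signal, which kept 14550 named genes. No probe was matched to Smpx, which encodes a small costameric muscle protein, and it was not analysed here. The data came from cardiac ventricles of female C57BL/6N mice aged 21 weeks, an inbred strain with no introduced allele or drug. In 3 samples the mice had undergone 5 weeks of sleep fragmentation, in which sleep is interrupted again and again, and in 3 control samples they had been left undisturbed. Total RNA was labelled with Cy3 and hybridised to 1-colour Agilent expression arrays, with 1 sample per array. The labels do not say whether each sample is a separate animal, and the p-values therefore reflect the spread among these samples only, which may be technical.

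The sarcomere is the unit of contraction in striated muscle. Myosin motors on the thick filaments pull on actin in the thin filaments when calcium binds the troponin complex and moves tropomyosin. Titin spans from the Z-disc, where thin filaments of neighbouring sarcomeres are anchored, to the M-band, where thick filaments are linked, and a set of chaperones and ubiquitin ligases builds and clears these proteins. In the ventricle of the adult mouse the main motor is alpha-myosin heavy chain, the product of Myh6.

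The promoters of 4 members on which the results turn are shown here, from RefSeq on build GRCm38.p6, each running from 250 bases before to 30 bases after the annotated transcription start, on the strand of the gene. Myh6, Actc1 and Tnnt2 stand for thick and thin filament genes that were high on the same array, and Flnc is the member whose groups did not overlap. Capitals mark matches on either strand to the MCAT motif (CATTCC), the GATA motif (AGATAA), the MEF2 site or the CArG box, which are motifs known from muscle promoters.
Myh6: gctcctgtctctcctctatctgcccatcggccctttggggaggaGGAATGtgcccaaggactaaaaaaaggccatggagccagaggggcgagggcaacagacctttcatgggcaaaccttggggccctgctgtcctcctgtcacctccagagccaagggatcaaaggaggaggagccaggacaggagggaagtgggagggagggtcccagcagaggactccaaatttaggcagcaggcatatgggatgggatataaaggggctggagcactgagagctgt
Actc1: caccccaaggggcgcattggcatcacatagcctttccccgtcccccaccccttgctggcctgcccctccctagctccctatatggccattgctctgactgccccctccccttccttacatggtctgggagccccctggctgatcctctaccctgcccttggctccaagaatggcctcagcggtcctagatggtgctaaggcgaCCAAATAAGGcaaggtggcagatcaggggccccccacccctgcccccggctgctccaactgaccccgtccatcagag
Tnnt2: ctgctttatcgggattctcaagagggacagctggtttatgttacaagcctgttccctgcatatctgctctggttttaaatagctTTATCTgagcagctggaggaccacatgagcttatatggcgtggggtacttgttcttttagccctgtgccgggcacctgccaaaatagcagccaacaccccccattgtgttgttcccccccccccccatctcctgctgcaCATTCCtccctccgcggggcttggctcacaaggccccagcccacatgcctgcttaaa
Flnc: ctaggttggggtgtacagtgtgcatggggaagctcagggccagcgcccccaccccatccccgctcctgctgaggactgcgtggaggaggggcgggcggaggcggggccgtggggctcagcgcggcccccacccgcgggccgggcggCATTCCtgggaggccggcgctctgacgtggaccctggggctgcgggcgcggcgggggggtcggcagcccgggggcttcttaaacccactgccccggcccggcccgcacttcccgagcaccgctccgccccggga

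The Myh6 window lies at chr14:54966578-54966857 on the minus strand and holds 1 MCAT match. The Actc1 window lies at chr2:114052846-114053125 on the minus strand and holds 1 CArG match. The Tnnt2 window, the first of those RefSeq gives for the gene, lies at chr1:135836084-135836363 on the plus strand and holds 1 MCAT and 1 GATA match. The second Tnnt2 window, not shown, holds none of the marked motifs. The Flnc window, the second given for that gene, lies at chr6:29433006-29433285 on the plus strand and holds 1 MCAT match. RefSeq promoters were matched for 30 members, with 42 windows of 280 bases. Of these windows, 8 (19%) held a CArG box, against 1.56% of 32851 promoters of all genes. An MCAT motif stood in 14 (33.3%), against 13.9% of all promoters, and a MEF2 site in 6 (14.3%), against 3.07%. The GATA motif was found in 8 (19%), against 10.7%, and the E-box (CANNTG, not marked in the sequences) in 34 (81%), against 70.1%. Motifs of different names were counted independently, so overlapping matches count for each. Windows of the same gene can overlap, so the same site can count more than once, as with the MCAT match that both Flnc windows hold. A match describes letters in the window and is not evidence of a bound site.

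The arrays differed in quality and in tissue content. The share of the 39429 probes called well above background ran from 59.2% to 72.6%. Sleep fragmented replicate 1 had the lowest share and was also the dimmest array, with a 75th percentile of 127 compared with 212 to 262 elsewhere. The sleep fragmented arrays share 1 scan and the controls share a different one, so scan and group cannot be told apart in any of the differences given here. Levels are log2 signals relative to the 75th percentile of the same array. The ventricular light chain genes Myl2 and Myl3 were well above background on all 6 arrays, as was Myh6. Of the 8 atrial markers 7 were measured, as Sln had no named probe that was kept. Their mean level was -0.46, 3.56 and 0.71 in sleep fragmented replicates 1, 2 and 3, against -0.91, 2.27 and 0.45 in control replicates 1, 2 and 3. Replicate 2 of both groups was thus the array with the most atrial signal in its group. The atrial light chains show the size of that spread. Myl4 had log2 signals of -0.05, 7.46 and 4.42 on the sleep fragmented arrays, against -0.12, 7.0 and 4.03 on the controls. Because these are bulk samples, fewer cells of a type and less RNA per cell cannot be told apart.

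In the comparison of sleep fragmented with control ventricles, none of the 34 measured genes passed the test. The limma fit over 25221 kept probes called 0 probes at an adjusted p under 0.05 (0%), and 735 (2.91%) at an unadjusted p under 0.05. Of the 34 genes, 0 passed at an adjusted p under 0.05 and 0 at an unadjusted p under 0.05, against 431 (2.96%) of all kept named genes at the unadjusted threshold. The smallest unadjusted limma p among them was 0.105 and the smallest adjusted p 0.938. Log2 fold changes (sleep fragmented over control) ran from -0.34 to 0.34, so none of the 34 estimates reached 1.5-fold in either direction. Few genes of any kind did: 526 of the 14550 kept named genes, and 15 of the 1455 in the brightest 10%. The median was 0.03, with 19 genes above 0 and 15 below. Over all kept named genes the median was 0.05, with 58.7% above 0, and over the 1455 genes in the brightest 10% it was -0.04. By probe signal, 21 of the 34 genes belong to that brightest 10%.

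The number of arrays limits the precision of these values. Standard errors of the log2 fold changes ran from 0.18 to 0.46, and 95% intervals extended from 0.41 to 1.04 to either side of the estimate, with a median of 0.48. For 16 genes the whole interval lay within 1.5-fold either way. Changes within these intervals remain possible with 3 arrays per group. The widths are not the detection limit of the adjusted test, which corrects over all kept probes and needs larger changes. Myot, a sarcomere gene outside the set, had an interval of -1.31 to -0.2 and did not pass (limma adjusted p = 0.938). The plot of fold changes by role shows the estimate and interval of each gene.

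**Figure D1:**
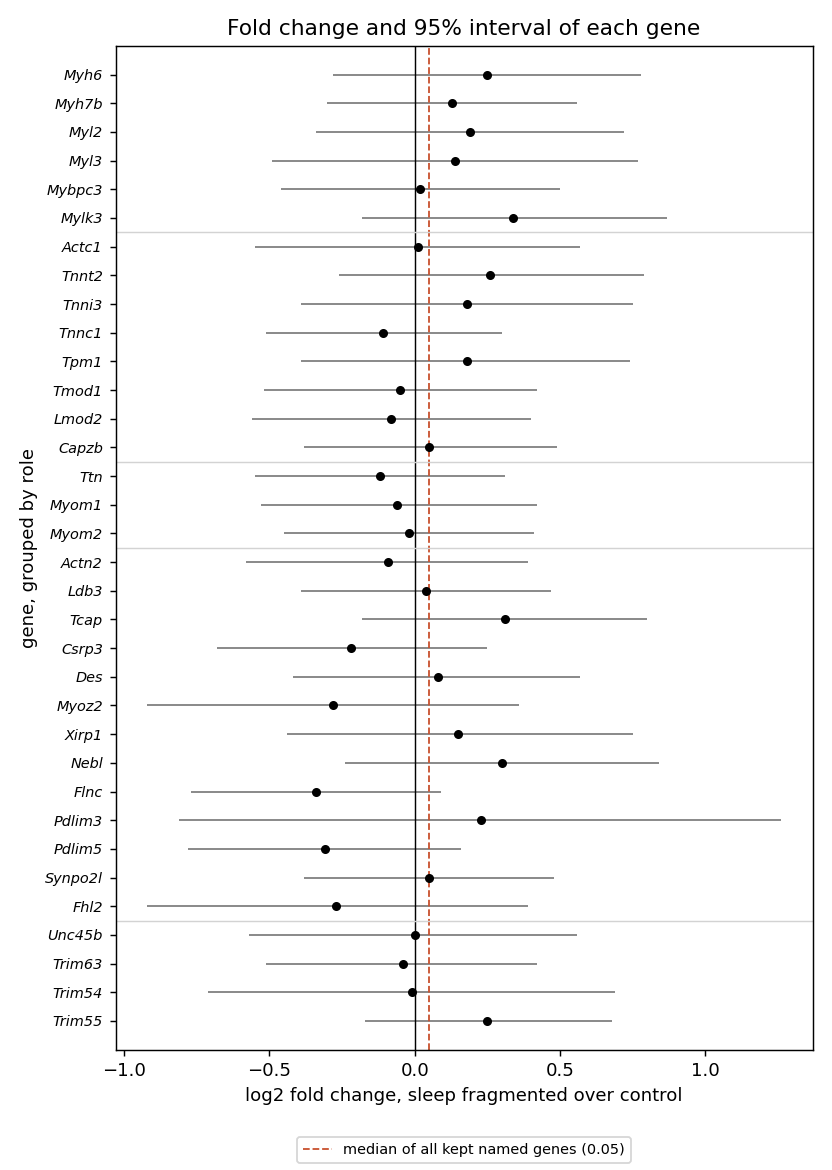
Log2 fold change (sleep fragmented over control, horizontal axis) with its 95% limma interval for each of the 34 genes, grouped by role on the vertical axis; the dashed line is the median of all kept named genes (0.05). The estimates run from -0.34 (Flnc) to 0.34 (Mylk3), and every interval includes 0.

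The 6 thick filament genes all had estimates slightly above 0, with a median of 0.16, and none passed the test. Myh6 had log2 signals of 7.97, 7.17 and 7.39 in sleep fragmented replicates 1, 2 and 3, against 7.31, 7.08 and 7.38 in control replicates 1, 2 and 3. Sleep fragmented replicate 1 stood above every control, replicate 3 was level with the highest control, and replicate 2 lay among the controls. The group means were 7.51 ± 0.41 in sleep fragmented and 7.26 ± 0.16 in control samples (SD, n = 3 each). This gave a log2 fold change of 0.25 ± 0.24 (SE) for Myh6, with a 95% interval of -0.28 to 0.78 (limma adjusted p = 0.938).

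Myl2 and Myl3 encode the regulatory and essential light chains of ventricular myosin, and they had the same high array. Myl2 had log2 signals of 7.60, 6.83 and 7.06 on the sleep fragmented arrays, against 7.12, 6.77 and 7.05 on the controls, a log2 fold change of 0.19 ± 0.23 (SE). Myl3 had 7.78, 6.68 and 7.06, against 7.15, 6.82 and 7.12 on the controls, a log2 fold change of 0.14 ± 0.28. For both genes sleep fragmented replicate 1 was the highest of the 6 arrays and replicate 3 lay among the controls. Replicate 2 lay among the controls for Myl2 and below all of them for Myl3.

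Mylk3, the cardiac kinase that phosphorylates the regulatory light chain, had the highest estimate of the 34 genes. Its log2 signals were 0.86, 1.05 and 1.52 on the sleep fragmented arrays, against 0.57, 0.76 and 1.08 on the controls. Here sleep fragmented replicate 3 was the highest array and the groups overlapped. Its log2 fold change was 0.34 ± 0.23 (SE), with a 95% interval of -0.18 to 0.87 (limma unadjusted p = 0.175, adjusted p = 0.938). With arrays weighted by their quality it was 0.59 ± 0.21 (limma unadjusted p = 0.0197), whereas it was 0.13 with median scaling, 0.15 without sleep fragmented replicate 3 and 0.22 without control replicate 1. The smallest adjusted p of any member under any of the alternatives was 0.479, for Mylk3. Myh7b, a slow-type myosin heavy chain, had a log2 fold change of 0.13 ± 0.19, and Mybpc3, the myosin-binding protein C that regulates cross-bridges, of 0.02 ± 0.21.

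That the 6 thick filament estimates lay above 0 depended on the scaling and on single arrays. With quantile normalization, with scaling to the array median and in the authors' deposited value table, 2 of the 6 lay above 0, and with the normexp correction 5 did. Without sleep fragmented replicate 1, 3 of the 6 lay above 0, and the Myh6 estimate was 0.02. It was 5 of 6 without sleep fragmented replicate 3 and 5 of 6 without control replicate 2, where Mybpc3 lay below 0.

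**Figure D2:**
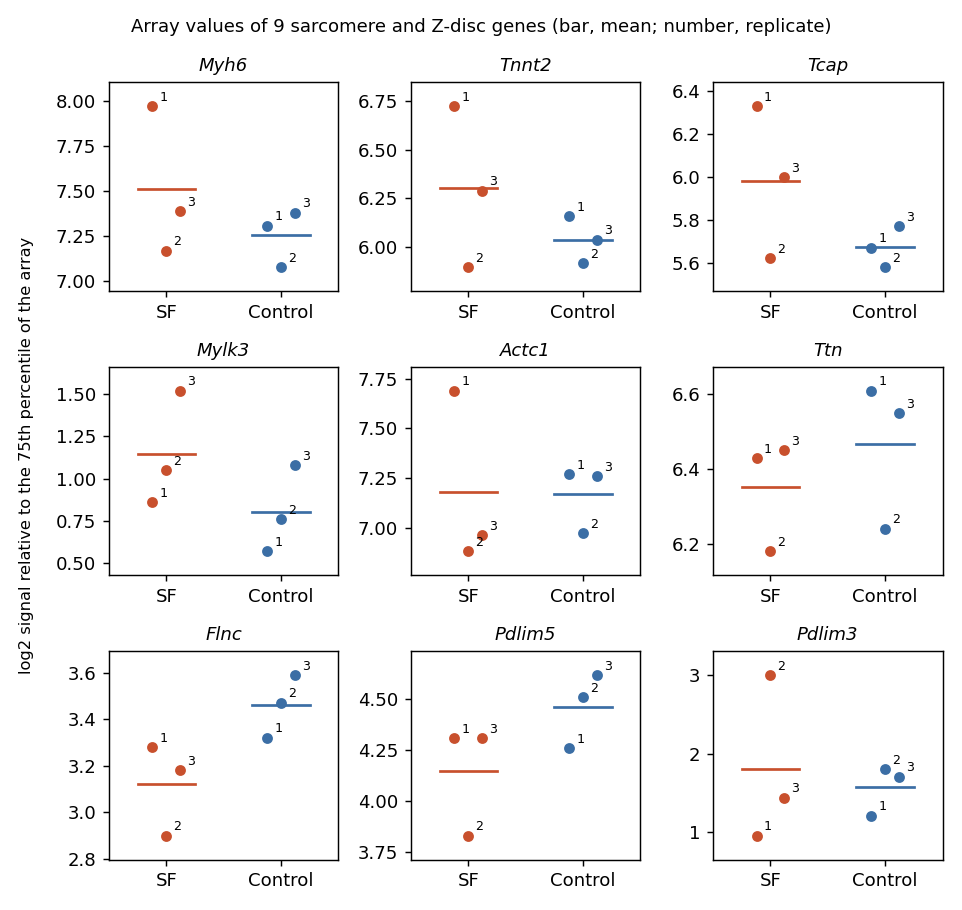
Log2 signal relative to the array's 75th percentile (vertical axis, a separate range in each panel) of 9 genes on the 3 sleep fragmented (SF) and 3 control arrays; points carry their replicate number and bars are group means. Sleep fragmented replicate 1 is the highest array for Myh6, Tnnt2, Tcap and Actc1, replicate 2 of that group is the lowest for Flnc and Pdlim5 and the highest for Pdlim3.

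Of the 8 thin filament genes, 5 had estimates above 0 and 3 below, with a median of 0.03, and none passed the test. Actc1, cardiac alpha-actin, had log2 signals of 7.69, 6.88 and 6.96 on the sleep fragmented arrays, against 7.27, 6.97 and 7.26 on the controls. Sleep fragmented replicate 1 was above all controls and the other 2 below all of them, so the groups overlapped fully. The log2 fold change was 0.01 ± 0.25 (SE), with a 95% interval of -0.55 to 0.57. Without sleep fragmented replicate 1 it was -0.25.

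Tnnt2, the troponin subunit that binds tropomyosin, had log2 signals of 6.72, 5.90 and 6.29 on the sleep fragmented arrays, against 6.16, 5.92 and 6.04 on the controls. Sleep fragmented replicates 1 and 3 were above every control and replicate 2 was below every control. Tnnt2 thus had a log2 fold change of 0.26 ± 0.23 (SE), with a 95% interval of -0.26 to 0.79 (limma adjusted p = 0.938), and it was 0.05 without sleep fragmented replicate 1. Tpm1, alpha-tropomyosin, had 7.46, 6.59 and 6.89 on the sleep fragmented arrays, against 6.95, 6.56 and 6.89 on the controls, a log2 fold change of 0.18 ± 0.25. The inhibitory subunit Tnni3 had a log2 fold change of 0.18 ± 0.25 and the calcium-binding subunit Tnnc1 of -0.11 ± 0.18.

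The genes that set thin filament length had estimates close to 0. Tmod1, which caps the pointed end, had a log2 fold change of -0.05 ± 0.21 (SE), and Lmod2, a leiomodin that elongates the filament at that end, of -0.08 ± 0.21. Capzb, the beta subunit of the protein that caps the barbed end at the Z-disc, had 0.05 ± 0.19. For all 3 genes the groups overlapped.

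The 3 genes of titin and the M-band had estimates of -0.12 to -0.02, all within 1 standard error of 0. Ttn, which encodes the titin spring, had log2 signals of 6.43, 6.18 and 6.45 on the sleep fragmented arrays, against 6.61, 6.24 and 6.55 on the controls. The groups overlapped, and the log2 fold change was -0.12 ± 0.19 (SE), with a 95% interval of -0.55 to 0.31 (limma adjusted p = 0.944). Myom1, a myomesin that links thick filaments at the M-band, had 4.08, 3.67 and 4.14 on the sleep fragmented arrays, against 3.79, 4.04 and 4.23 on the controls. Its log2 fold change was -0.06 ± 0.21, and that of the related Myom2 was -0.02 ± 0.19. Sleep fragmented replicate 2 was the lowest array for all 3 genes.

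The Z-disc group held both the lowest estimate, Flnc, and the only member whose groups did not overlap, again Flnc. Of its 13 measured genes, 7 lay above 0 and 6 below, with a median of 0.04, and none passed the test. Flnc, filamin C, crosslinks actin at the Z-disc and links it to the cell membrane. Its log2 signals were 3.28, 2.90 and 3.18 in sleep fragmented replicates 1, 2 and 3, against 3.32, 3.47 and 3.59 in control replicates 1, 2 and 3. Each sleep fragmented array was below each control, although the arrays numbered 1 differed by only -0.03. The means were 3.12 ± 0.20 in sleep fragmented and 3.46 ± 0.13 in control samples (SD, n = 3 each). This was a log2 fold change of -0.34 ± 0.19 (SE), or 1.27-fold lower, with a 95% interval of -0.77 to 0.09 (limma unadjusted p = 0.105, adjusted p = 0.938).

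This 1 of 34 genes without overlap (2.94%) stands against a background of 7.62% of all kept named genes in either direction and 3.97% lower in the sleep fragmented group, so the share was not above the background. For Flnc the groups also stayed apart with quantile normalization, median scaling, normexp and the authors' deposited table; the other alternatives rescale no array value and could not make them overlap. Its log2 fold change ran from -0.55 to -0.22 over the alternatives. Scaled to the array median it was -0.55 (limma unadjusted p = 0.0187), where the median of all genes was -0.16, and with the normexp background correction it was -0.42 (limma unadjusted p = 0.0212). Without replicate 2 of both groups it was -0.22. Arrays of the same replicate number gave differences of -0.03, -0.57 and -0.41.

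Pdlim5, a PDZ and LIM domain adaptor of the Z-disc also called ENH, had a pattern near that of Flnc. Its brightest probe gave 4.31, 3.83 and 4.31 on the sleep fragmented arrays, against 4.26, 4.51 and 4.62 on the controls. Replicate 1 of the controls was the lowest control and lay below 2 of the sleep fragmented arrays. The log2 fold change was -0.31 ± 0.21 (SE), with a 95% interval of -0.78 to 0.16 (limma adjusted p = 0.938), and -0.13 without replicate 2 of both groups.

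Tcap, telethonin, which caps titin at the Z-disc, had the highest Z-disc estimate. Its log2 signals were 6.33, 5.62 and 6.00 on the sleep fragmented arrays, against 5.67, 5.58 and 5.77 on the controls. Sleep fragmented replicates 1 and 3 were above every control and replicate 2 lay among them. The estimate was 0.31 ± 0.22 (SE), with a 95% interval of -0.18 to 0.80 (limma adjusted p = 0.938). Without sleep fragmented replicate 2 its log2 fold change was 0.49 ± 0.21 (limma unadjusted p = 0.0495), and without sleep fragmented replicate 1 it was 0.14. Nebl, nebulette, which binds thin filaments near the Z-disc, had a log2 fold change of 0.30 ± 0.24 with overlapping groups.

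Pdlim3, another PDZ and LIM domain protein known as ALP, had the widest spread of the set because of 1 array. Its log2 signals were 0.96, 3.00 and 1.44 on the sleep fragmented arrays, against 1.21, 1.80 and 1.71 on the controls. Sleep fragmented replicate 2 was the highest by over 1 unit, and replicate 1 of that group was the lowest. Pdlim3 had a log2 fold change of 0.23 ± 0.46 (SE), with a 95% interval of -0.81 to 1.26. It was 0.65 without sleep fragmented replicate 1 and -0.37 without replicate 2, the array with the highest atrial and adipocyte marker signal. The part of those cells in the Pdlim3 value was not tested.

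The remaining Z-disc genes lay on both sides of 0. Actn2, sarcomeric alpha-actinin, the main crosslinker of the Z-disc, had log2 signals of 3.51, 3.26 and 3.87 on the sleep fragmented arrays, against 3.58, 3.51 and 3.84 on the controls. The groups overlapped and its log2 fold change was -0.09 ± 0.21 (SE). Below 0 were also Myoz2, a calsarcin that binds calcineurin (-0.28 ± 0.28), Fhl2, a LIM-only protein that binds titin (-0.27 ± 0.29), and Csrp3, muscle LIM protein (-0.22 ± 0.20). Fhl2 had log2 signals of 5.68, 4.80 and 5.18 on the sleep fragmented arrays, against 5.94, 5.08 and 5.43 on the controls. Arrays of the same number differed by -0.26, -0.29 and -0.25, which is less than the spread within either group. Above 0 were Xirp1, an actin-binding Xin repeat protein (0.15 ± 0.26), Des, desmin of the intermediate filaments (0.08 ± 0.22), Synpo2l (0.05 ± 0.19) and Ldb3, the adaptor also called ZASP or cypher (0.04 ± 0.19).

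The 4 genes of assembly and turnover had a median of -0.01, with 1 estimate above 0. Trim63, the ubiquitin ligase MuRF1 that marks sarcomere proteins for degradation, had log2 signals of 3.64, 3.47 and 4.0 on the sleep fragmented arrays, against 3.72, 3.59 and 3.94 on the controls. The groups overlapped, and the log2 fold change was -0.04 ± 0.21 (SE), with a 95% interval of -0.51 to 0.42 (limma adjusted p = 0.978). Trim55, the related MuRF2, had -1.15, -1.32 and -1.01 on the sleep fragmented arrays, against -1.30, -1.63 and -1.31 on the controls, a log2 fold change of 0.25 ± 0.19. Sleep fragmented replicate 2 was the only array of that group below a control. Unc45b, the chaperone that folds myosin, had 1.45, 1.66 and 1.88 on the sleep fragmented arrays, against 2.14, 1.26 and 1.59 on the controls, with a log2 fold change of 0.00 ± 0.25. Trim54, known as MuRF3, had -0.01 ± 0.31.

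Array by array, the members differed by more than their median fold change of 0.03. Taking each gene's level minus its mean over the 6 arrays, the median over the 34 genes was 0.07, -0.25 and 0.12 in sleep fragmented replicates 1, 2 and 3, against -0.01, -0.16 and 0.08 in control replicates 1, 2 and 3. The same median over all kept named genes was 0.06, -0.06 and 0.06 in the sleep fragmented arrays, against -0.02, -0.11 and 0.06 in the controls. Sleep fragmented replicate 2 was the lowest of the 6 arrays for 21 of the 34 genes (61.8%), compared with 17.1% of all kept named genes and 38.7% of the brightest 10%. Sleep fragmented replicate 1 was the highest array for 11 (32.4%), compared with 28.5% of all kept named genes and 33.2% of the brightest 10%. The SD was larger among the sleep fragmented arrays than among the controls for 28 of 34 genes (82.4%), compared with 48.5% of all kept named genes. These shares describe 3 arrays per group and were not tested.

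**Figure D3:**
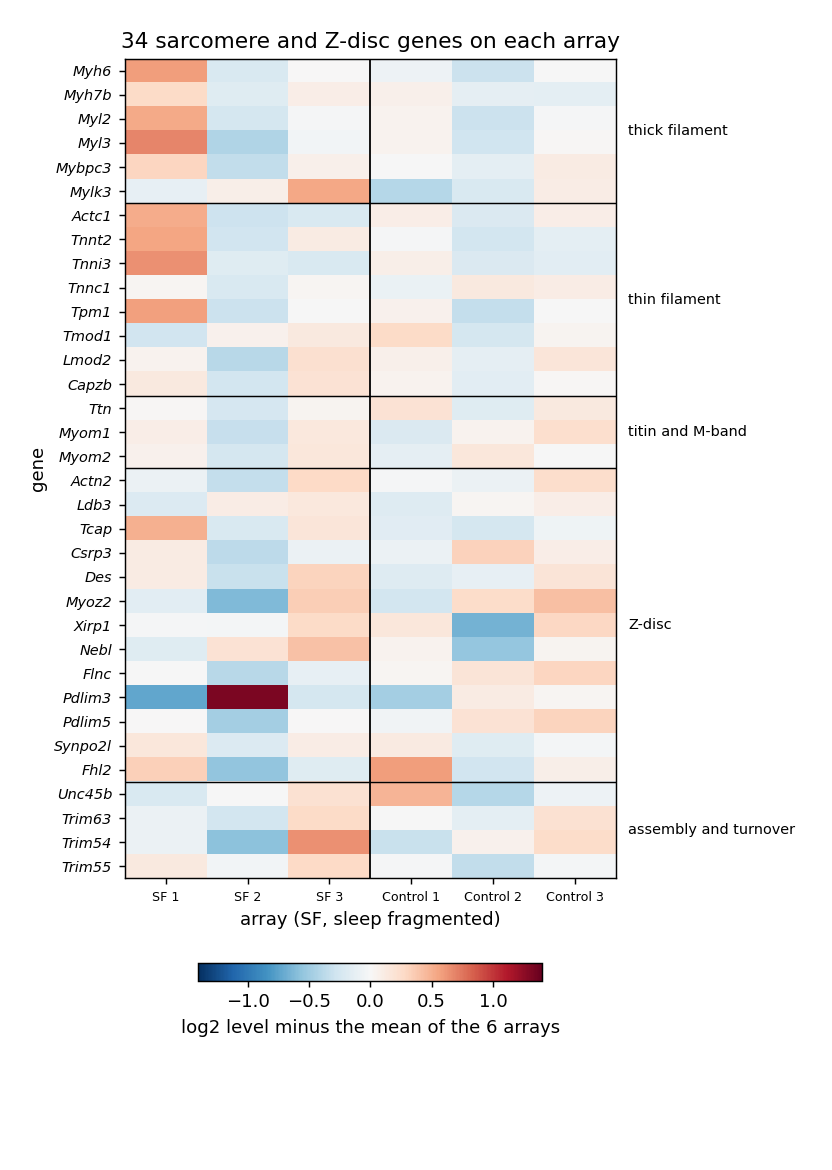
Log2 level of each of the 34 genes (vertical axis, by role) minus its mean over the 6 arrays, on each array (horizontal axis, SF for sleep fragmented); colour gives the difference in log2 units. Sleep fragmented replicate 2 is the lowest array for 21 genes, and 5 of 6 thick filament and 4 of 8 thin filament genes are highest on sleep fragmented replicate 1.

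The pattern differed by role, but genes also differed in signal level, and the part of signal level was not tested. On sleep fragmented replicate 1, the dimmest array, Tcap of the Z-disc (6.33) was at its highest and the thick filament gene Mylk3 (0.86) was not. Of the 11 genes highest there, all but Myh7b (2.24) and Synpo2l (4.53) had log2 signals of 6.33 or more on that array. Ttn, at 6.43, was the only other gene at such a level, and it was not highest there. With quantile normalization the thick filament median log2 fold change was -0.05, compared with 0.16 in the main fit. Thick filament genes had a median deviation of 0.42 on sleep fragmented replicate 1, where 5 of 6 had their highest value, and thin filament genes one of 0.33, with 4 of 8 highest there. The 12 markers of cardiac muscle outside the sarcomere, such as the calcium pump gene Atp2a2 and the myoglobin gene Mb, were high and low on the same arrays. Their median deviation was 0.35, -0.30 and 0.02 on the sleep fragmented arrays, against 0.01, -0.24 and 0.10 on the controls. Replicate 2 of each group was therefore the lowest of its group in this median and in that of the 34 genes together. Titin and the M-band genes did not follow this on the controls, with median deviations of 0.06, -0.25 and 0.15 on the sleep fragmented arrays, against -0.12, 0.05 and 0.14 on the controls, and Tnnc1 and Csrp3 were highest on control replicate 2. The same arrays were high in atrial markers, with deviations of -0.92, 2.35 and -0.11 on the sleep fragmented arrays, against -1.56, 1.02 and -0.53 on the controls. The 3 measured adipocyte markers of 6 had mean levels of -1.98, 2.62 and -1.13 on the sleep fragmented arrays, against -2.42, 1.74 and -0.56 on the controls (Cidec, Lep and Plin1 had no named probe that was kept). Their part in the levels of the contractile genes was not tested.

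**Figure D4:**
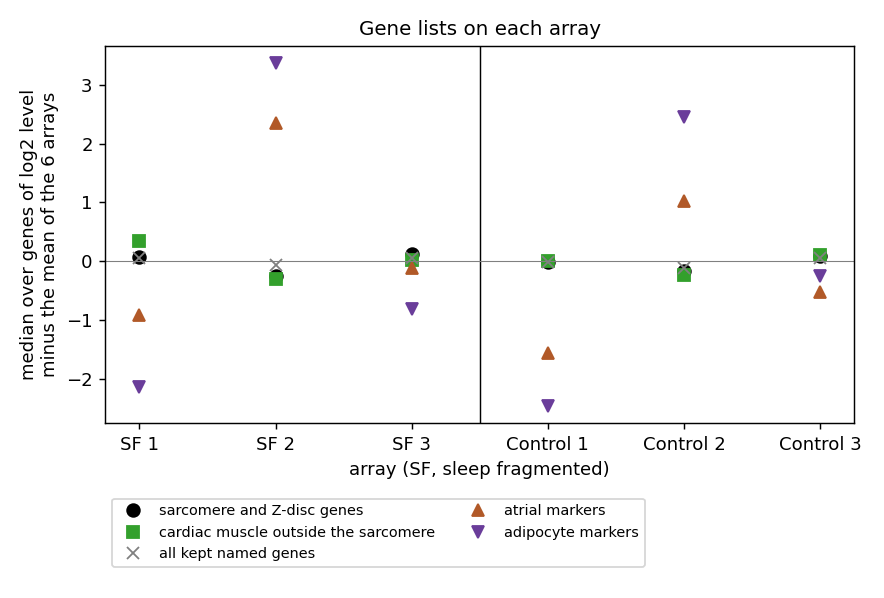
Median over the genes of each list of the log2 level minus the mean of the 6 arrays (vertical axis) on each array (horizontal axis, SF for sleep fragmented). Atrial markers (2.35) and adipocyte markers are highest on sleep fragmented replicate 2 and next highest on control replicate 2, where the sarcomere genes (-0.25 and -0.16) and other cardiac muscle genes (-0.30 and -0.24) are low.

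Markers of other tissues that express sarcomere or actin genes were measured beside them. Of 10 skeletal muscle markers, 6 were measured, with mean levels of -0.44, -0.62 and -0.62 on the sleep fragmented arrays, against -0.69, -1.01 and -0.51 on the controls. Myh1, Myh2, Myh4 and Mylpf had no named probe that was kept. All 6 smooth muscle markers were measured, at 0.62, 1.31 and 0.68 on the sleep fragmented arrays, against 0.79, 0.76 and 1.26 on the controls. The groups overlapped in both lists. Fibroblast markers (7 of 7 measured) had mean levels of 3.30, 3.51 and 2.79 on the sleep fragmented arrays, against 2.94, 2.64 and 2.77 on the controls. Endothelial markers (6 of 6) had 1.94, 1.77 and 1.78, against 2.03, 1.99 and 1.81 on the controls. In both of these lists the group ranges overlapped. Erythroid markers (5 of 5) had mean levels of 5.20, 4.01 and 3.57 on the sleep fragmented arrays, against 2.72, 3.02 and 2.95 on the controls. Every sleep fragmented array was above every control in this mean. Sleep fragmented replicate 1 was the highest array for erythroid markers as well as for most thick filament genes. The part of blood in these levels was not tested.

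A further list of 50 sarcomere genes outside the set, all of them measured, gave the context of the pathway. Of these, 21 had estimates above 0 and 29 below, with a median of -0.05. None passed at an adjusted p under 0.05, and 1 passed at an unadjusted limma p under 0.05. In 2 genes every sleep fragmented array was above every control and in 2 it was below, or 4 of 50 (8%) against 7.62% of all kept named genes. Myot encodes myotilin, an actin crosslinker of the Z-disc that binds filamin C. It had log2 signals of 3.50, 3.64 and 4.26 on the sleep fragmented arrays, against 4.27, 4.68 and 4.71 on the controls. The highest sleep fragmented array was just under the lowest control. Myot had a log2 fold change of -0.75 ± 0.25 (SE), or 1.68-fold lower (limma unadjusted p = 0.0135, adjusted p = 0.938). This ran from -0.98 to -0.43 over the alternatives, the smallest in size with array weights.

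Cavin4, a muscle caveolar protein, had 2.07, 1.65 and 2.35 on the sleep fragmented arrays, against 2.44, 2.48 and 2.56 on the controls, a log2 fold change of -0.47 ± 0.21 (limma adjusted p = 0.938). The arrays of Cavin4 did not overlap between the groups. Neb, nebulin, the ruler of skeletal thin filaments, had -1.25, -1.03 and -1.25 on the sleep fragmented arrays, against -1.34, -1.58 and -1.81 on the controls, a log2 fold change of 0.40 ± 0.19 without overlap (0.19 ± 0.26 when scaled to the array median). Obsl1, an obscurin-like M-band protein, was the other gene higher without overlap, at 0.19 ± 0.17. Ankrd2, a stretch-responsive ankyrin repeat protein, had 0.55 ± 0.28, Tnni1, the slow skeletal troponin I of the fetal heart, 0.41 ± 0.23, and Xirp2, a Xin repeat protein of the intercalated disc, -0.37 ± 0.22. The beta-myosin gene Myh7, a near copy of Myh6, had log2 signals of 2.18, 3.50 and 2.5 on the sleep fragmented arrays, against 2.25, 3.89 and 3.92 on the controls. Its groups overlapped and its log2 fold change was -0.63 ± 0.48. Probe sequences were not used here, so cross-hybridisation between these near copies was not tested.

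For 8 of the 34 genes more than 1 probe was kept. In 3 of these genes (Pdlim5, Ttn and Trim63) another probe had an estimate of the opposite sign to the brightest one. For Pdlim5, 2 probes of the same transcript gave log2 fold changes of -0.31 ± 0.21 and -0.34 ± 0.22 (SE). The third probe, named for another transcript of the gene, gave 0.25, 0.42 and 0.15 on the sleep fragmented arrays, against -0.16, 0.19 and -0.03 on the controls, a log2 fold change of 0.27 ± 0.18. Within each array, the brightest probe minus this one was 4.06, 3.42 and 4.16 on the sleep fragmented arrays, against 4.42, 4.32 and 4.65 on the controls, with no overlap. The mean within-array difference was 3.88 ± 0.40 in sleep fragmented and 4.46 ± 0.17 in control samples (SD, n = 3 each), and it differed by -0.58 between the groups. An exact two-sided permutation test gave p = 0.1, which is the smallest p that 3 arrays against 3 allow. Of 14 such probe pairs compared, 1 reached that value, and its p adjusted over the 14 was 0.862. No pair could have reached 0.05 with 3 arrays per group, so this test could not decide whether the probes differ. The mean of the 3 Pdlim5 probes gave a log2 fold change of -0.12.

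Ttn had 3 further probes, with log2 fold changes of 0.11 ± 0.24, -0.40 ± 0.22 and -0.07 ± 0.18. The probe with the lowest of these gave 2.81, 2.70 and 3.34 on the sleep fragmented arrays, against 3.30, 3.18 and 3.56 on the controls, with overlapping groups. The other probe of Trim63 gave 0.14 ± 0.25, that of Myh6 0.12 ± 0.23 and that of Mylk3 0.25 ± 0.25. The 5 probes of Tpm1 gave estimates of 0.01 to 0.19.

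Scaling to the array median shifts every gene's estimate by the same amount, so it moves the members together with all other genes by construction. Scaled in this way in place of the 75th percentile, the members' median was -0.18 and that of all kept named genes -0.16. Relative to all genes the members' median was -0.02, which this scaling cannot change. Under that scaling 7 members lay above 0 and 27 below, compared with 19 above 0 and 15 below at the 75th percentile. With quantile normalization 15 lay above 0 and 19 below. It moved the members unequally: for instance, Myh6 went from 0.25 to -0.04 and Myh7b from 0.13 to 0.16. The median of all kept named genes went from 0.05 to 0.0. The sign of the estimate was kept under all 17 alternatives for 9 genes (Flnc, Pdlim5, Fhl2 and Ttn below 0, and Mylk3, Tcap, Tnnt2, Nebl and Trim55 above it), and it turned under at least 1 alternative for the other 25. Not every alternative could turn a sign. The dim-probe filters, the replicate block and the variance prior left the members' estimates unchanged, as did averaging probes for genes with a single kept probe. The authors' table gave nearly the same estimates as quantile normalization. The plot of fold changes under each processing shows the shifts.

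**Figure D5:**
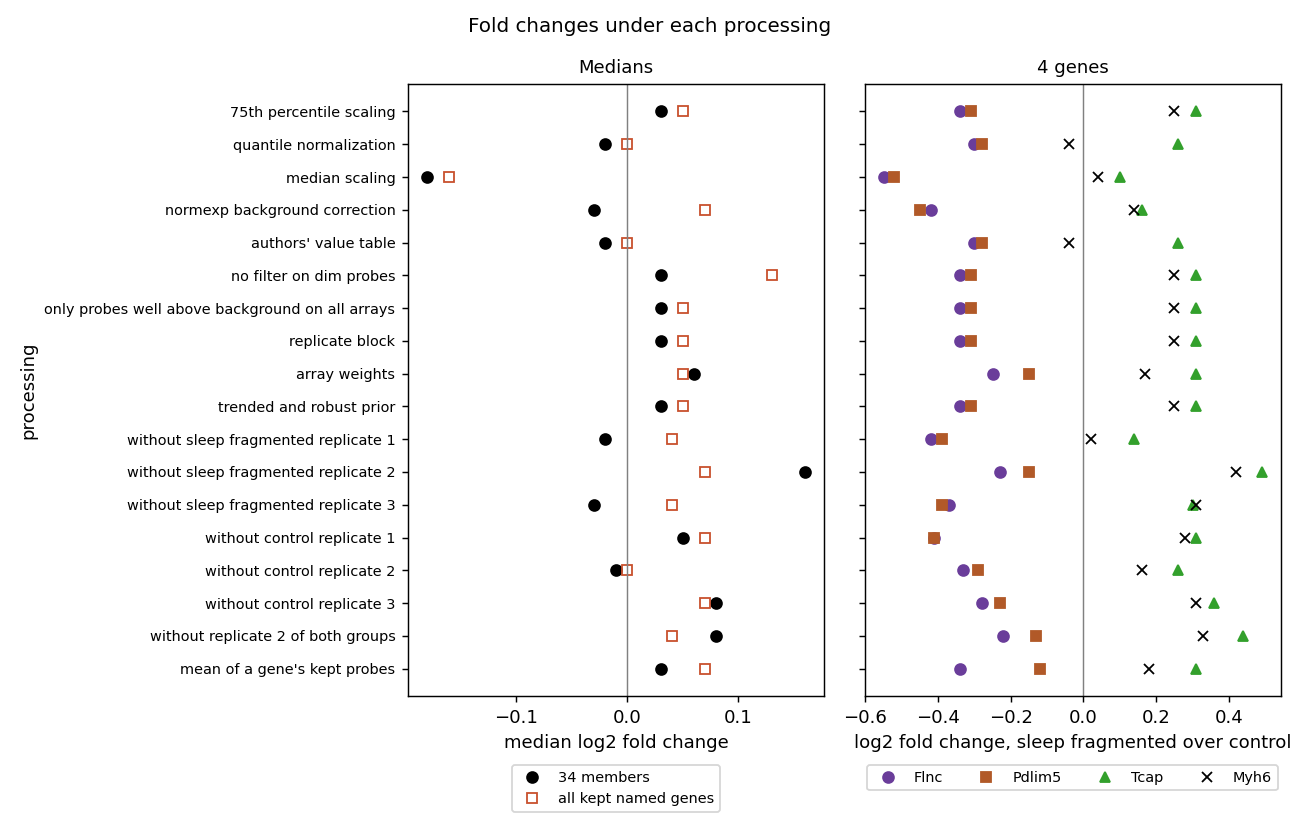
Left, the median log2 fold change (horizontal axis) of the 34 genes and of all kept named genes under each processing (vertical axis); right, the log2 fold change of Flnc, Pdlim5, Tcap and Myh6. The members' median lies between -0.18 and 0.16 and by construction follows that of all genes under median scaling, while Flnc stays between -0.55 and -0.22.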

How the data were processed

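Total RNA of 6 ventricle samples was measured, 1 per array; groups and replicate numbers were taken from the end of each title. Per the file headers, the intensity values (linear, background subtracted) are output of Agilent Feature Extraction 11.0.1.1 on design 026655; version 10.5.1.1 stands in the submitters' processing notes, an unexplained mismatch. Deposited flags mark outlying, saturated and well-above-background spots as 0 or 1 (other values). The log2 value table deposited by the authors has no stated processing in the sources used here; each column had a median near 5.54 and matched its own array with r of 0.998 or more, so its scale is close to quantile-normalized log2 and it served as an alternative only.

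Control and outlier spots (180 to 240 per array) were left out, spots of a probe were averaged, and each array's 75th percentile was subtracted from the log2 intensity. No spot was saturated (0). Of 39429 probes, 25221 were kept, those well above background on all arrays of 1 group or both. RefSeq accessions named 27234 probes (69.1%) through a gene table of assembly GRCm38.p6 and left 12195 unnamed; no probe positions are given. The brightest kept probe stood for a gene. The comparison used limma 3.58.1 in R 4.3.3 (lmFit, then eBayes; prior degrees of freedom, 5.02). Tests were two-sided, and p-values were adjusted over all kept probes by Benjamini-Hochberg. The method was tested on simulated data.

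The members and gene lists were chosen with earlier results of these data known. Array values are printed for the best known members of each role, the 2 with the smallest p per role, those whose groups or probes stand apart, and, of the further list, up to 6 genes with the smallest p; Obsl1 and Myh7 were added after their values were seen. Alternatives covered scaling, background correction, dim-probe filter, replicate block, array weights, variance prior, the authors' table, the mean of a gene's probes and each array left out. The files have no mean spot signal, so the normexp correction (offset 50) used median spot signals.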

Additional observations from a re-analysis of the deposited data

How the results depend on the processing

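Over 17 alternatives, 0 of the 34 genes passed at an adjusted p under 0.05, with a smallest adjusted p of 0.479. Of 578 estimates of single genes, 89 changed sign, in 25 genes, and 33 moved by over 1 standard error. The 578 include alternatives that could not change an estimate, so these counts overstate its stability. The number of genes at an unadjusted p under 0.05 was 2 with median scaling and 2 with normexp (Flnc and Pdlim5 in both), 1 with array weights, and 0 to 1 with 1 array left out. Genes without overlap of the groups numbered 2 with quantile normalization, 5 with median scaling, 2 with normexp, 2 in the authors' table and 1 to 7 with 1 array left out, most without sleep fragmented replicate 2; with fewer arrays, overlap is rarer by construction. Leaving out replicate 2 of both groups, chosen after seeing the data, gave 9 such genes, and 5 probes at an adjusted p under 0.05. Among the 50 further sarcomere genes, 8 were without overlap with median scaling and 12 without replicate 2 of both groups. The share over all kept named genes was not taken under these alternatives, so the member counts have no such background beside them. The median of the 34 genes was -0.18 with median scaling and -0.03 to 0.16 with 1 array left out. Over all kept probes, normexp gave 3 at an adjusted p under 0.05 and 850 at an unadjusted p under 0.05. Probes at an unadjusted p under 0.05 numbered 1123 with median scaling, 1531 with no filter, 1826 with array weights and 450 to 3013 with 1 array left out (450 without sleep fragmented replicate 1, 473 without control replicate 1, 1226 without sleep fragmented replicate 2 and 3013 without control replicate 3). The causes were not tested.

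With the replicate number as a block, 4 probes passed at an adjusted p under 0.05 and 2018 at an unadjusted p under 0.05, while 0 of the 34 genes passed at either and their median stayed 0.03. Deviations of same-numbered arrays correlated at 0.0633, 0.554 and 0.214, and sleep fragmented replicate 1 correlated best with control replicate 3 (0.36). Deviations cancel out within each group, so these correlations constrain each other and cannot settle whether the numbers pair the samples. The numbers are not stated to pair them, so the main fit had no block. The replicate numbers coincide with an array identifier in the file headers, so a block for that identifier is the same fit.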
